A study of Homo sapiens with 60 samples.

Results

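Messenger RNA of 9 epithelial and mesenchymal marker genes was followed through 60 libraries of A549, an established cell line from a human lung carcinoma. The genes were taken by name from a count table of 60675 Ensembl gene identifiers: the epithelial adhesion genes CDH1 and EPCAM, the cadherins CDH2 and CDH4, the intermediate filament gene VIM, the matrix genes FN1 and TGFBI, and the transcription factor genes SNAI2 and ZEB1. All 9 were found, all 9 passed the filter on low counts, and 17826 genes passed it in all. Cells had received vehicle or 1 of 8 herbal extracts for 24 h. The 3 vehicle libraries are labelled 0.1% DMSO, although the series' design text gives 2%. No DMSO share is labelled for the extract libraries. Yijin-tang and Soshiho-tang, both decoctions, were water extracts, and they shared set 8, a number carried by the library names. The ethanol extracts of Liriopis seu Ophiopogonis Tuber and of Schisandrae Fructus shared set 9, and those of Longan Arillus and of Zizyphi Semen set 10. These 6 extracts were given at 500 (high), 100 (medium) and 20 (low) µg/mL, with 3 libraries per dose, or 2 for Soshiho-tang. Set 11 held the ethanol extract of Polygalae Radix at 380, 76 and 15.2 µg/mL and that of Aucklandiae Radix at 370, 74 and 14.8 µg/mL, doses that the design text ties to their inhibitory concentration in these cells. Each of its doses was a single library, and no test was run there. Vehicle was set C1. Set and treatment therefore cannot be told apart in any comparison with vehicle, while doses of 1 extract, and the paired extracts of a set, lie within 1 set.

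Epithelial cells hold on to one another through E-cadherin and lie on a basement membrane. In epithelial-mesenchymal transition they lose these contacts, build a vimentin network, secrete fibronectin and migrate, and transcription factors of the SNAI and ZEB families repress the E-cadherin gene by binding E-boxes in its promoter. Transforming growth factor beta is a strong inducer of the program in lung epithelium, and A549 cells are a common model for it. They carry epithelial keratins together with abundant vimentin before any treatment.

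The promoters of the 3 most abundant members, FN1, VIM and TGFBI, are shown first because these genes moved farthest in the Polygalae Radix libraries described below. The table of RefSeq promoters (GRCh38.p14) held an entry for 6 of the 9 members, without CDH1, EPCAM and SNAI2. In each, the 250 bases before the RefSeq start were searched on both strands, and the bases lying before the first GENCODE 29 start of the gene are printed 5′ to 3′ on the gene's strand, with motif matches that lie wholly in the printed run in capitals.
FN1, chr2:215436173-215436318, minus strand: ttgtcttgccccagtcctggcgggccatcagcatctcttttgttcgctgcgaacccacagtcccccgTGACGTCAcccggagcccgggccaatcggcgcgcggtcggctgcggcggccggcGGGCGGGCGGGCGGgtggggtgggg
VIM, chr10:17227991-17228240, plus strand: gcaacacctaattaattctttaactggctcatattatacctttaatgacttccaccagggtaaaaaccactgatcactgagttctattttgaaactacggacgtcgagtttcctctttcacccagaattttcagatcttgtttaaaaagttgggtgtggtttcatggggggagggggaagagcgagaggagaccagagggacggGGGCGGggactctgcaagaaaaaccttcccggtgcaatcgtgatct
TGFBI, chr5:136028738-136028894, plus strand: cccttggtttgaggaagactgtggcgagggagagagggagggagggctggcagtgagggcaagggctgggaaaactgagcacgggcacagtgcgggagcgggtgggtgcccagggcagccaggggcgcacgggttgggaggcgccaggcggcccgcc
In all, 5 motifs were searched in these windows and in all 35116 windows of that length. Each window stands for a single RefSeq start, and other starts of the gene were not searched. A run of 30 bases shortly after that start occurred in 11 of 27 GENCODE 29 transcripts of FN1, 1 of 10 of VIM and 3 of 15 of TGFBI. The cAMP response element TGACGTCA had 1 match in the FN1 window, at position -183 from the start, and in 1.65% of all windows. The GC box GGGCGG had 6 matches for FN1, some of them overlapping, 1 for VIM and 3 for TGFBI, and occurred in 42.6% of all windows. No match was found in these 3 windows to the E-box CAGGTG read by ZEB and SNAI factors, which stood in 17.5% of all windows. The AP-1 element TGANTCA (6.57% of all windows) and the TATA box TATAAA (10.7%) had none either. The FN1 and TGFBI windows were GC-rich, at 76.4% and 72.8%, against a median of 58% over all windows, and VIM was at 46%.

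Library totals ranged from 18002661 to 33831747 expected counts, with a median of 23897182. Levels are given in CPM, counts per 1000000 counts of the library, scaled by TMM factors, and the error of a level is the SD over libraries. Nothing in the labels says that replicates came from separate cultures, so a p-value reflects only how these libraries varied, and that variation may be technical. In 2 libraries, replicate 3 of Soshiho-tang medium and replicate 3 of Longan Arillus low, expression fell with transcript length (slopes of log2 expression on log2 length of -0.4629 and -0.5424, against -0.1081 to 0.04529 in the other 52 replicated libraries), and all tests were fitted without these 2 libraries unless stated. Soshiho-tang medium is then a single library, assumed to vary like the other groups, and Longan Arillus low has 2. Of the keratins of simple epithelium, KRT8 (3597 CPM), KRT18 (2813 CPM) and KRT7 (2076 CPM) were abundant in vehicle. KRT19 was far lower, at 27.6 CPM. Summed markers of other cell types over all libraries were 25.4 to 49.6 CPM for 10 fibroblast genes, 6.06 to 37.1 CPM for 10 leukocyte genes and 0.164 to 0.802 CPM for 10 endothelial genes. DCN was at 0 in 48 libraries, FAP in 57, CD3E in 59 and MS4A1 in 60. Other members of the fibroblast and leukocyte lists were found in every library. The most abundant in vehicle were COL1A1 (29.6 CPM) among the fibroblast genes and CD68 (12.3 CPM) among the leukocyte genes, so the sums rest largely on them. In bulk RNA, fewer cells of a kind and less RNA per cell cannot be told apart.

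In vehicle-treated A549 cells VIM, TGFBI, FN1 and CDH2 stood above both epithelial members, and CDH4 and the transcription factor genes did not stand above CDH1. Divided by the length of the longest GENCODE 29 transcript, the levels in vehicle ran from VIM (529 ± 16.1 CPM per kb, SD, n = 3), TGFBI (425 ± 8.40) and FN1 (134 ± 3.23) through CDH2 (24.1 ± 0.844) to CDH1 (6.96 ± 0.148), ZEB1 (5.40 ± 0.425), CDH4 (4.08 ± 0.131), EPCAM (2.65 ± 0.249) and SNAI2 (0.207 ± 0.0193). No neighbours in this order lay within 1 SD of each other. The order of close neighbours depended on the length chosen: with the median transcript length TGFBI (621 CPM per kb) stood above VIM (529), and CDH1 (10.3) and CDH4 (8.05) stood above ZEB1 (6.24). Thus N-cadherin (CDH2) mRNA exceeded E-cadherin (CDH1) mRNA per length, and ZEB1 exceeded SNAI2.

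**Figure D1:**
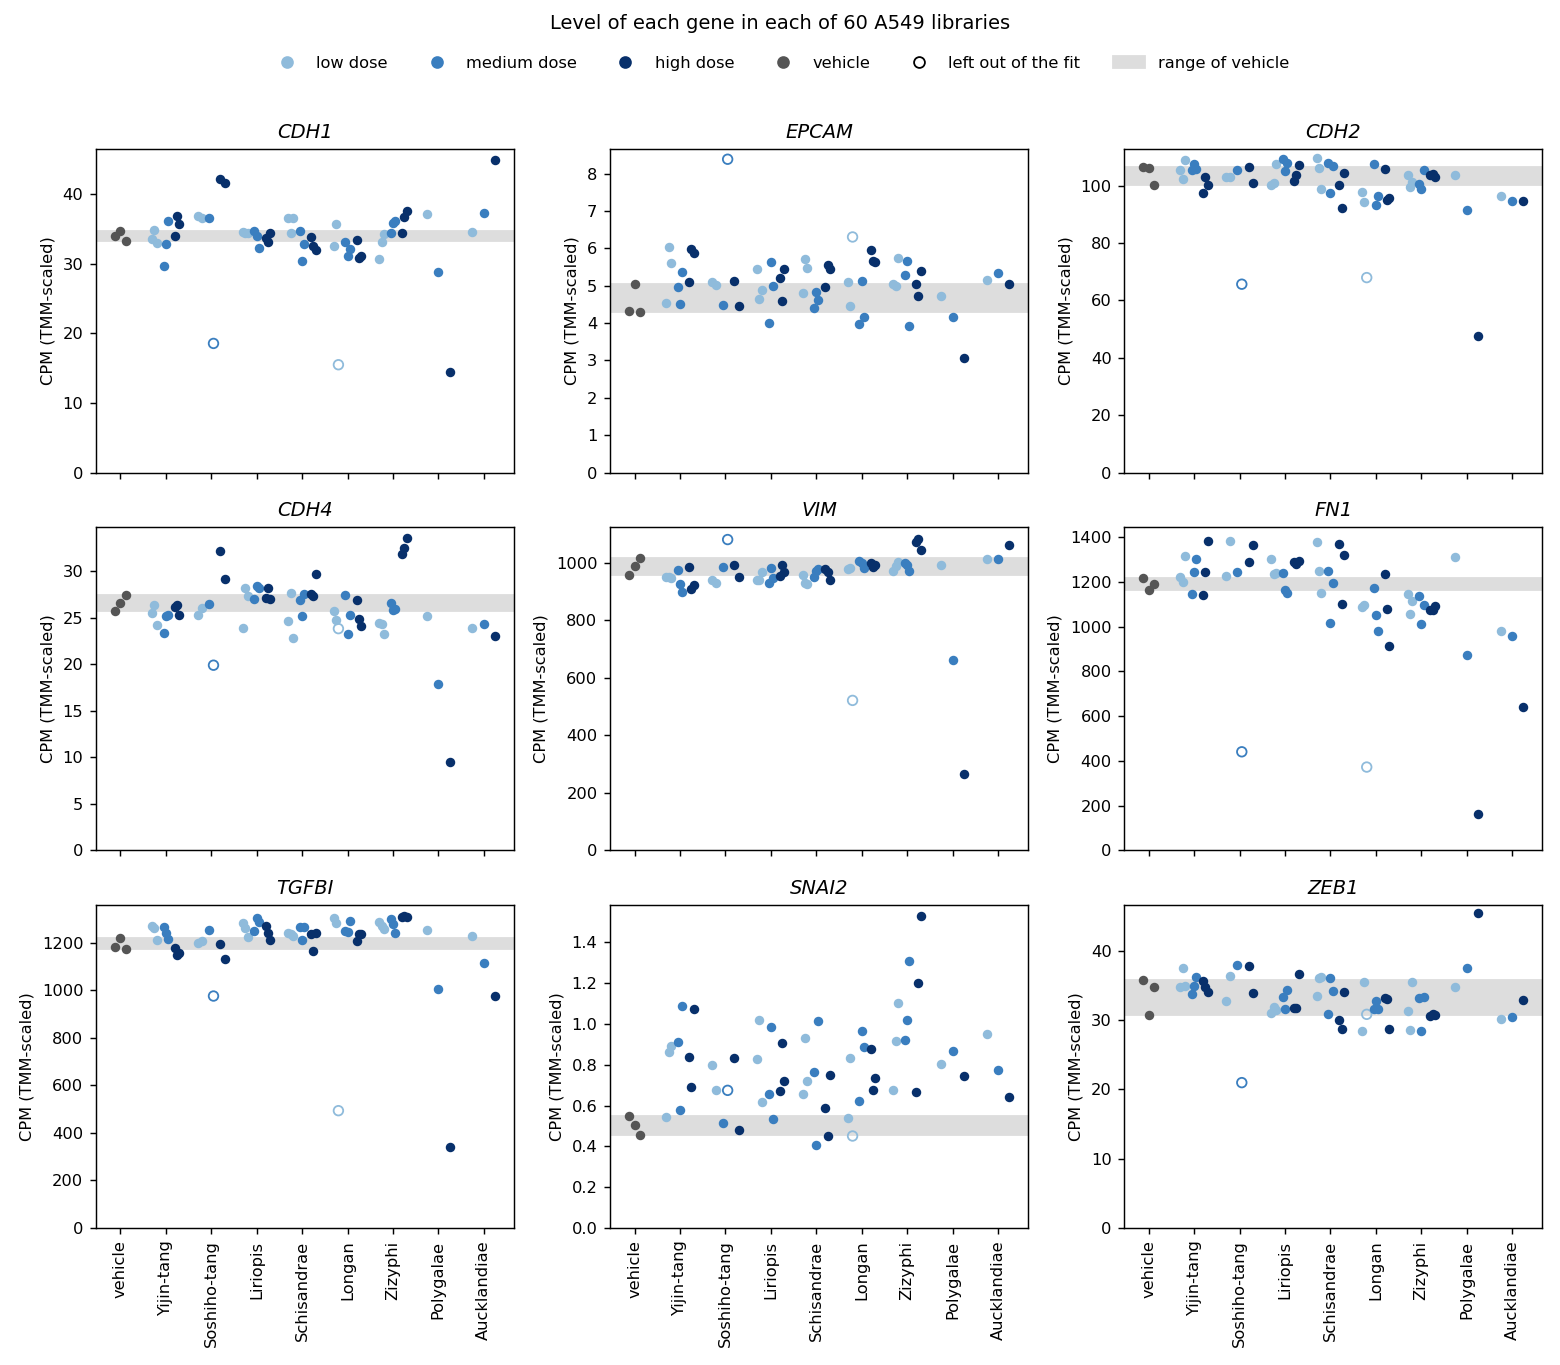
Level of each gene in every library (CPM, TMM-scaled, linear axis from 0) by treatment, with lighter to darker points for low, medium and high dose, the range of the 3 vehicle libraries in grey and the 2 length-biased libraries as open circles. Most libraries lie near the vehicle band, and SNAI2 stays under 1 CPM in 51 of 60 libraries. The Polygalae Radix high library is the lowest of 60 for 7 genes and the highest for ZEB1, and the share of all genes lowest there was not counted.

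SNAI2 was the only member with a mean under 1 CPM (0.781 CPM over 60 libraries). It was under 1 CPM in 51 of them, with 8 to 36 counts per library and a median of 18.5, so its differences carry wide intervals. The other 8 members reached at least 1 CPM in every library. Across the 19 replicated groups, the group means varied least for CDH2, with a coefficient of variation of 2.88%, and most for SNAI2, at 20.7%. VIM (3.20%) and TGFBI (3.27%) were nearly as even as CDH2, and ZEB1 (5.99%), CDH1 (6.79%), FN1 (7.30%), EPCAM (7.37%) and CDH4 (7.88%) lay between.

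High and low doses were first compared within each extract, and so within 1 set. Of 54 gene-by-extract pairs, 5 were called at an adjusted p below 0.05 (edgeR quasi-likelihood test, adjusted over all 17826 genes), 4 higher and 1 lower, which is 9.26% of the pairs against 2.29% of all gene-by-extract pairs. The median log2 difference over the 9 members was 0.0133 for Yijin-tang, 0.029 for Liriopis seu Ophiopogonis Tuber, 0.0432 for Zizyphi Semen and 0.0235 for Soshiho-tang, and it was -0.0249 for Schisandrae Fructus and -0.00381 for Longan Arillus. Over all genes it lay between -0.00292 and 0.000323. Between medium and low dose edgeR called 0 of 54 pairs, against a background of 0.000935%, with 3 pairs at an unadjusted p below 0.05 and 0 called by DESeq2. The cadherin CDH4 gave the largest and most stable of the 5 calls.

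CDH4 (chromosome 20, positions 61252426 to 61940617, plus strand) encodes R-cadherin, a classical cadherin of neural and renal tissue. Zizyphi Semen libraries held 24.4, 24.3 and 23.2 CPM at the low dose, 26.6, 25.8 and 25.9 CPM at the medium dose and 31.8, 32.5 and 33.6 CPM at the high dose. Every high-dose library lay above every medium-dose library, which in turn lay above every low-dose library. The high dose exceeded the low dose by 0.44 ± 0.0593 on the log2 scale (SE), 1.36-fold, with an adjusted p of 3.25e-06 in edgeR, where 1.17% of all genes were called. The call held with all 54 libraries (adjusted p 0.00548), in all other alternatives and without each of the 6 libraries in turn (adjusted p 2.2e-05 to 0.000187).

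Soshiho-tang also raised CDH4, from 25.3 and 26.1 CPM at the low dose, through 26.4 CPM in the single medium library, to 32.2 and 29.2 CPM at the high dose. The groups did not overlap, and the log2 difference of high against low was 0.25 ± 0.0727 (edgeR adjusted p 0.0167, with 9.83% of all genes called). This call was lost with all 54 libraries (adjusted p 0.218) and without high replicate 2 (0.29), low replicate 2 (0.146) or low replicate 3 (0.0569). Schisandrae Fructus gave 27.5, 27.3 and 29.7 CPM at the high dose against 24.6, 27.7 and 22.9 CPM at the low dose, with overlapping groups, and the difference of 0.16 ± 0.0585 was not called (adjusted p 0.173, 0.0448 without low replicate 2; 1.6% of all genes called). Log2 differences in the other 3 extracts lay between -0.00381 for Longan Arillus and 0.0457 for Liriopis seu Ophiopogonis Tuber, none of them called.

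**Figure D2:**
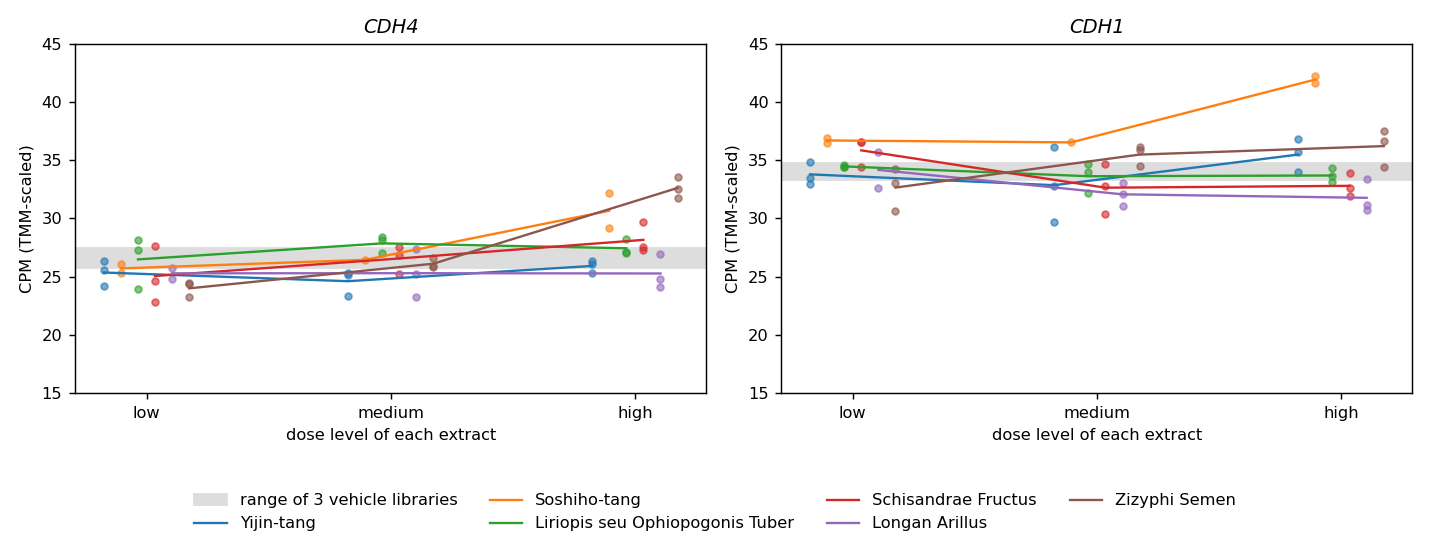
Levels of CDH4 (left) and CDH1 (right) in CPM (axis from 15 to 45) at the low, medium and high dose of the 6 replicated extracts, with points for single libraries of the 52 in the fit, lines through group means and the vehicle range in grey. CDH4 rose from 24.0 to 32.6 CPM on average under Zizyphi Semen and CDH1 from 36.7 to 42.0 CPM under Soshiho-tang, while Longan Arillus left the CDH4 mean at 25.3 CPM.

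CDH1 (chromosome 16, 68737225 to 68835548, plus strand), the E-cadherin gene of adherens junctions, was called in 1 of the 6 high against low comparisons. Soshiho-tang libraries held 36.9 and 36.5 CPM of it at the low dose, 36.5 CPM in the medium library and 42.2 and 41.7 CPM at the high dose, without overlap between high and low. The difference of 0.19 ± 0.0631 (log2, SE) had an edgeR adjusted p of 0.0422. It was lost without any 1 of the 4 libraries (high replicate 2, 0.204; high replicate 3, 0.117; low replicate 2, 0.155; low replicate 3, 0.172), with all 54 libraries (0.958), with DESeq2 (0.057), without the filter (0.112) and in the fit of its own set (0.0578). Zizyphi Semen showed an estimate of the same sign, 0.15 ± 0.0527, that was not called (adjusted p 0.198), and Schisandrae Fructus an estimate of -0.13 ± 0.0515 (0.265). Over the 6 extracts the CDH1 estimates therefore ran from -0.126 to 0.193.

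EPCAM (chromosome 2, 47345158 to 47387601, plus strand), an epithelial surface adhesion gene, passed the test in none of its 36 contrasts. At a mean of 4.56 ± 0.429 CPM in vehicle it is a low-level gene here, and its high against low estimates ran from -0.0806 to 0.264, the last for Longan Arillus (SE 0.133, edgeR adjusted p 0.47). In all contrasts together edgeR called 0 for EPCAM, with 3 at an unadjusted p below 0.05. DESeq2 called 0 and gave no adjusted p in 8 of the 36. The epithelial pair CDH1 and EPCAM did not vary together over the 19 group means (r = -0.12, a description over groups that share libraries of 1 set).

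CDH2 (chromosome 18, 27950966 to 28177446, minus strand), the N-cadherin gene, was the steadiest member. Its levels in the 52 libraries ran from 92.1 to 110 CPM around a median of 103 CPM, and the vehicle mean was 104 ± 3.66 CPM. High against low estimates lay between -0.0858 and 0.0425 on the log2 scale, and the estimate farthest from 0, for Schisandrae Fructus, had a 95% interval of -0.176 to 0.00471. edgeR called CDH2 in 0 of 36 contrasts, with 1 at an unadjusted p below 0.05, and DESeq2 in 0. That contrast was the low dose of Longan Arillus against vehicle (-0.12 ± 0.0517, adjusted p 0.0807), which passed at -0.26 (0.0326) when the length-biased replicate 3 was included.

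VIM (chromosome 10, 17228259 to 17237593, plus strand) encodes vimentin, the intermediate filament of mesenchymal cells. Zizyphi Semen gave 971, 990 and 1003 CPM at the low dose, 998, 993 and 970 CPM at the medium dose and 1071, 1084 and 1044 CPM at the high dose. All 3 high-dose libraries lay above the other 6 and above the vehicle libraries (957, 988 and 1018 CPM). The high against low difference was small, 0.11 ± 0.0283 (1.08-fold), with an edgeR adjusted p of 0.0358. It was lost with all 54 libraries (1), without the filter (0.277), in the fit of its own set (0.0624), and without high replicate 1 (0.115), high replicate 2 (0.202), low replicate 1 (0.176), low replicate 2 (0.105) or low replicate 3 (0.0594). In the other 5 extracts the estimates ran from -0.0152 to 0.0549.

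TGFBI (chromosome 5, 136028895 to 136063818, plus strand) encodes a secreted matrix protein that transforming growth factor beta induces. It was the only member called lower at a high dose: Yijin-tang libraries held 1269, 1262 and 1211 CPM at the low dose, 1267, 1240 and 1215 CPM at the medium dose and 1176, 1147 and 1157 CPM at the high dose. Every high-dose library lay below every other Yijin-tang library. TGFBI fell by 0.10 on the log2 scale (SE 0.027, edgeR adjusted p 0.0367, with 1.02% of all genes called). The call was lost with all 54 libraries (1), without the filter (0.216), in the fit of its own set (0.147), and without high replicate 1 (0.0541), high replicate 2 (0.167), high replicate 3 (0.136), low replicate 1 (0.226) or low replicate 2 (0.192).

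FN1 (chromosome 2, 215360440 to 215436172, minus strand), the fibronectin gene, had no dose difference called in the replicated extracts. High against low estimates were between -0.0315 and 0.0313 with SEs of 0.088 to 0.108. The 95% intervals together reached from -0.216 (Longan Arillus) to 0.235 (Soshiho-tang), so smaller differences were not detectable. Liriopis seu Ophiopogonis Tuber had 1236 to 1304 CPM at the low and 1279 to 1294 CPM at the high dose, and Longan Arillus 1089 to 1097 CPM at the low and 915 to 1236 CPM at the high dose. edgeR called FN1 in 0 of 36 contrasts, with 0 at an unadjusted p below 0.05, and DESeq2 in 0.

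SNAI2 and ZEB1 encode repressors of E-cadherin. Neither was called between high and low dose: SNAI2 estimates ran from -0.386 to 0.328 with SEs of 0.288 to 0.397, and ZEB1 estimates from -0.193 to 0.0783 with SEs of 0.0765 to 0.0949. The ZEB1 estimate farthest from 0, for Schisandrae Fructus, rested on 33.6 to 36.2 CPM at the low and 28.8 to 34.04 CPM at the high dose, which overlapped (edgeR adjusted p 0.246). Over its 36 contrasts edgeR called ZEB1 (chromosome 10, 31318495 to 31529814, plus strand) 0 times, with 2 at an unadjusted p below 0.05. DESeq2 called it 0 times and gave no adjusted p in 2 of the contrasts. Exons of the antisense gene ZEB1-AS1 (3.67 CPM in vehicle) overlap those of ZEB1 and exons of VIM-AS1 (0.708 CPM) those of VIM, and their reads cannot be told apart from the members' without a known strand setting. CDH1 overlaps AC099314.1, CDH2 overlaps AC110015.1 and VIM overlaps AL133415.1 in the same way.

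**Figure D3:**
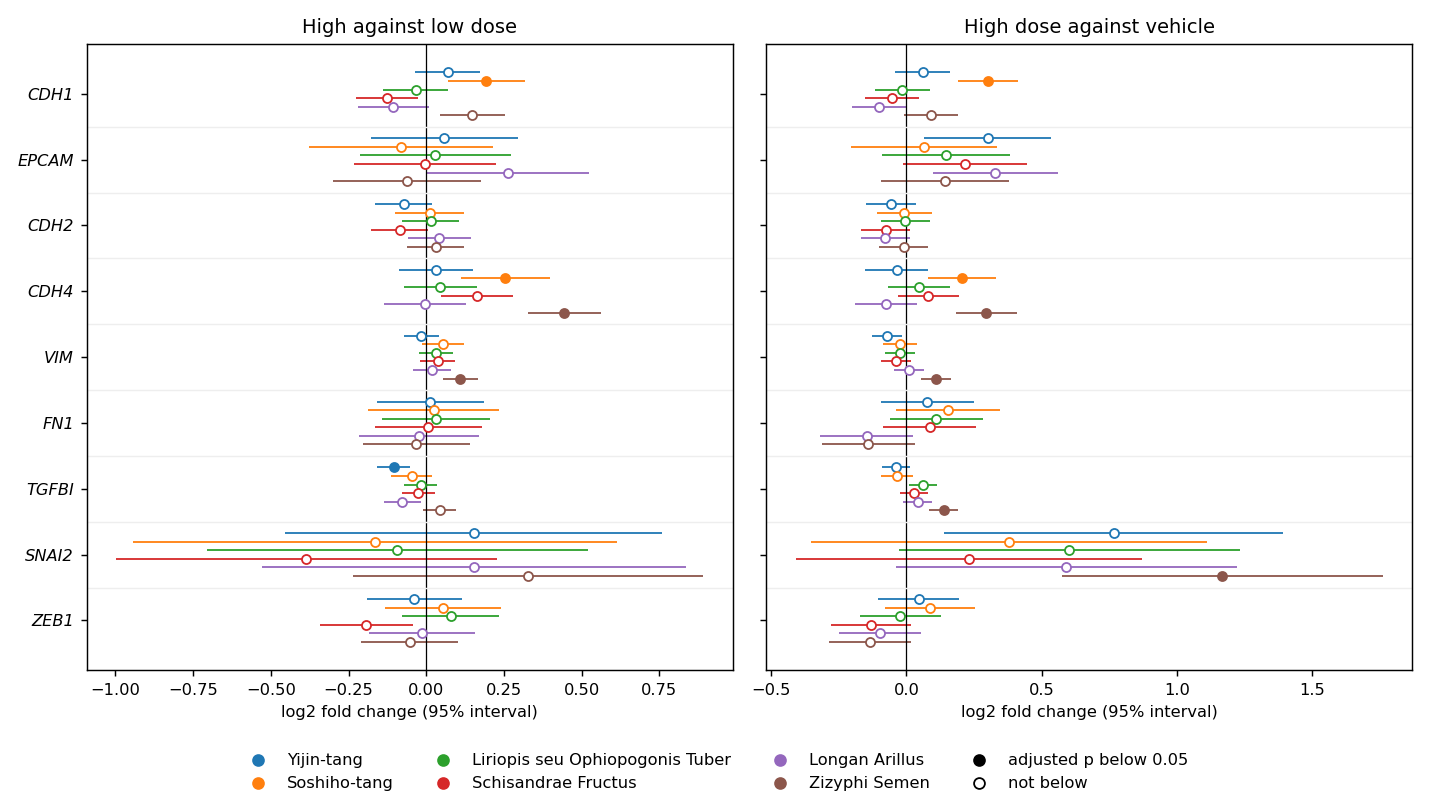
Log2 fold changes (horizontal axis, points) with 95% intervals (lines) of each gene (rows) in the 6 replicated extracts (colours), high against low dose on the left and high dose against vehicle on the right, on separate scales, with filled points at an adjusted p below 0.05. The 5 filled points on the left and 6 on the right belong to CDH1, CDH4, VIM, TGFBI and SNAI2, and the SNAI2 intervals are the widest.

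Against vehicle, the high doses gave 6 calls among 54 pairs, all higher, or 11.1% of pairs against 13.9% of all genes. The 3 vehicle libraries are shared by all of these comparisons. Mitochondrial transcripts made up 8.60% to 8.88% of counts in vehicle, 8.06% to 10.9% in set 8, 8.88% to 12.3% in set 9 and 10.6% to 15.1% in set 10, and the part of this in the comparisons with vehicle was not tested. Soshiho-tang high (42.2 and 41.7 CPM) exceeded vehicle (33.9, 34.8 and 33.3 CPM) for CDH1 without overlap, by 0.30 ± 0.0569 on the log2 scale (edgeR adjusted p 6.35e-05, with 22.1% of all genes called). That held without each of 5 libraries in turn and was lost with all 54 libraries (0.411). CDH4 was also higher in Soshiho-tang high than in vehicle (25.8, 26.5 and 27.5 CPM), by 0.21 ± 0.065 (0.0169), and this was lost with all 54 libraries (0.163), without vehicle replicate 1 (0.064) and without Soshiho-tang high replicate 2 (0.344).

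Zizyphi Semen high gave the other 4 calls against vehicle, where 22.8% of all genes were called. CDH4 was higher by 0.30 ± 0.0574 (edgeR adjusted p 0.000172) and stayed called in all alternatives, with all 54 libraries at 0.0167. VIM was higher by 0.11 ± 0.0283 (0.00335) and TGFBI, at 1309, 1312 and 1310 CPM against 1181, 1218 and 1174 CPM, by 0.14 ± 0.0269 (0.00018). Both were lost with all 54 libraries (0.678 and 0.737), and VIM also without the filter (0.114). At the low dose the CDH4 estimate against vehicle was below 0 (-0.15 ± 0.0592, 0.0539), so the excess over vehicle was seen at the high dose and not at the low dose. The difference between these doses is the within-set comparison above.

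SNAI2 was higher than vehicle at every dose of Zizyphi Semen. Vehicle libraries held 0.549, 0.503 and 0.456 CPM (16, 17 and 13 counts), and the Zizyphi Semen libraries 0.677, 0.916 and 1.10 CPM at the low dose, 0.923, 1.02 and 1.31 CPM at the medium dose and 0.665, 1.20 and 1.53 CPM at the high dose (15 to 36 counts). All 9 lay above all 3 vehicle libraries, and the 3 doses overlapped one another. The estimates were 0.84 ± 0.313 (edgeR adjusted p 0.0395), 1.09 ± 0.306 (0.00574) and 1.17 ± 0.303 (0.00377), where 27.3%, 28% and 22.8% of all genes were called. The high-dose call was lost without high replicate 3 (0.0566) and the low-dose call with all 54 libraries (0.108), with DESeq2 (0.0729), without the filter (0.0761) and without vehicle replicate 1 (0.0612), 2 (0.0854) or 3 (0.11) or low replicate 2 (0.0844) or 3 (0.203). High against low was not called (0.33 ± 0.288, 0.767). In set 10 as a whole SNAI2 ranged from 0.538 to 1.53 CPM, in set 8 from 0.481 to 1.09 and in set 9 from 0.406 to 1.02, so the vehicle libraries (0.456 to 0.549) were near the bottom of the range in every set, and set and extract cannot be told apart here.

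TGFBI accounted for the remaining vehicle calls at lower doses. At the medium dose 4 of 54 pairs were called, all higher, or 7.41% against a background of 9.81%: SNAI2 under Zizyphi Semen and TGFBI under 3 extracts. Those TGFBI differences were 0.10 ± 0.027 for Liriopis seu Ophiopogonis Tuber (1248, 1304 and 1286 CPM, edgeR adjusted p 0.0178, 3.81% of all genes called), 0.084 ± 0.0269 for Longan Arillus (1249, 1247 and 1291 CPM, 0.0222, 18.6%) and 0.098 ± 0.0269 for Zizyphi Semen (1302, 1280 and 1242 CPM, 0.00495, 28%). All 9 of these libraries lay above the vehicle range of 1174 to 1218 CPM. All 3 calls were lost with all 54 libraries (1, 0.882 and 0.792) and without the filter (0.261, 0.379 and 0.161). Liriopis seu Ophiopogonis Tuber also lost its call without vehicle replicate 1 (0.0795) or 3 (0.107) or medium replicate 2 (0.101) or 3 (0.0764), and Longan Arillus without vehicle replicate 1 (0.0782) or 3 (0.101) or medium replicate 3 (0.163).

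At the low dose 3 of 54 pairs were called against vehicle, all higher, or 5.56% against 11.8%. Besides SNAI2 they were TGFBI under Longan Arillus (1303 and 1282 CPM, 0.12 ± 0.03, edgeR adjusted p 0.00277, 25.8% of all genes called) and under Zizyphi Semen (1287, 1270 and 1258 CPM, 0.095 ± 0.0269, 0.00675). Both were lost without the filter (0.074 and 0.178), and Zizyphi Semen with all 54 libraries (0.813). For Longan Arillus low replicate 3 held 493 CPM, and with it the estimate was -0.21 (0.26). With all 54 libraries, CDH2 (-0.26, edgeR adjusted p 0.0326) and VIM (-0.25, 0.0499) were called lower under Longan Arillus at this dose, where neither was called in the 52 (0.0807 and 0.853).

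Estimates for EPCAM against vehicle at the high dose were above 0 in all 6 extracts, from 0.0653 to 0.328. Longan Arillus high held 5.96, 5.65 and 5.65 CPM and vehicle 4.32, 5.06 and 4.31 CPM, without overlap, and the difference of 0.33 ± 0.118 just missed the threshold (edgeR adjusted p 0.0528). It passed with RLE factors (0.0484), among genes of at least 1 CPM (0.0394) and without vehicle replicate 2 (0.0374). Yijin-tang high (5.10, 5.99 and 5.87 CPM) gave 0.30 ± 0.119 and was not called (0.124).

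FN1 levels in the replicated extracts are given here by set, and differences between sets were not tested. FN1 lay between 915 and 1236 CPM in the 17 set 10 libraries of the fit, between 1143 and 1385 CPM in set 8, between 1017 and 1379 CPM in set 9 and between 1162 and 1220 CPM in vehicle. The estimates against vehicle were -0.15 ± 0.088 for Longan Arillus high and -0.14 ± 0.088 for Zizyphi Semen high, against 0.15 ± 0.098 for Soshiho-tang high, and none was called (edgeR adjusted p 0.288, 0.27 and 0.293). Without the filter on low counts all 3 passed (0.000913, 0.000746 and 0.00874), as did Longan Arillus medium (-0.17, 0.000163 against -0.16, 0.227 with the filter). Over the 52 libraries the FN1 level followed the length slope of its library, with r = 0.864, and r = 0.671 over the 35 libraries outside set 10. FN1 has the longest transcript of the 9 members. The same r was 0.709 for CDH2, 0.524 for ZEB1, 0.341 for CDH1, 0.221 for CDH4, -0.109 for EPCAM, -0.119 for SNAI2, -0.322 for TGFBI and -0.513 for VIM. The part of library quality in the vehicle comparisons of FN1 was not tested.

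**Figure D4:**
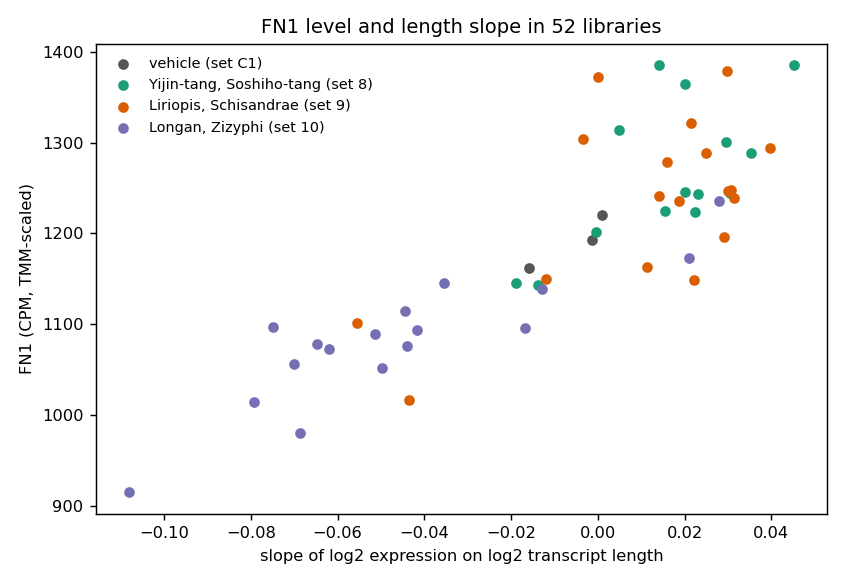
FN1 level (CPM, TMM-scaled, vertical axis not from 0) against the slope of log2 expression on log2 transcript length in each of the 52 libraries of the fit, coloured by set. Libraries of set 10 lie mostly to the lower left and those of sets 8 and 9 to the upper right, with r = 0.864 over all points.

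Extracts of the same set and dose were compared directly. At the high dose 3 of 27 pairs were called, or 11.1% against 4.15% of all genes. CDH4 was 0.37 ± 0.059 lower on the log2 scale in Longan Arillus (26.9, 24.8 and 24.1 CPM) than in Zizyphi Semen (31.8, 32.5 and 33.6 CPM), without overlap (edgeR adjusted p 9.53e-05, 0.74% of all genes called). It was lost with all 54 libraries (0.0851) and held without each of the 6 libraries. CDH1 and CDH4 were both lower in Yijin-tang than in Soshiho-tang (8.62% of all genes called). CDH1 was at 33.99, 36.8 and 35.7 CPM against 42.2 and 41.7 CPM, an estimate of -0.24 ± 0.058 (0.00409), and CDH4 at 26.1, 26.3 and 25.3 CPM against 32.2 and 29.2 CPM, also -0.24 ± 0.0666 (0.0141). Neither pair of groups overlapped. Both calls were lost with all 54 libraries (0.881 and 0.205) and without Soshiho-tang high replicate 2 (0.0717 and 0.354).

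In the Longan Arillus and Zizyphi Semen pair, CDH1 (-0.19 ± 0.0528), VIM (-0.10 ± 0.0283) and TGFBI (-0.096 ± 0.027) also had estimates below 0 that were not called (edgeR adjusted p 0.0714, 0.0714 and 0.078). VIM and TGFBI passed with DESeq2 (0.0145 and 0.0158). For SNAI2 the estimate was -0.58 ± 0.295 (0.511). The high against low response itself differed between the paired extracts for 1 of 27 pairs, 3.7% against 1.05% of all genes. It was CDH4 in Longan Arillus less Zizyphi Semen, -0.45 ± 0.0891 (0.0097, 0.14% of all genes called). Leaving out Longan Arillus low replicate 1 (0.0887), low replicate 2 (0.0503) or high replicate 3 (0.0647) or Zizyphi Semen high replicate 3 (0.0516) lost the call, as did all 54 libraries (0.163) and the fit of its own set (0.0873), while DESeq2 gave no adjusted p. The responses of Yijin-tang and Soshiho-tang were not shown to differ for CDH4 (-0.22 ± 0.0947, 0.266) or CDH1 (-0.12 ± 0.0823, 0.574), nor those of Longan Arillus and Zizyphi Semen for CDH1 (-0.26 ± 0.0786, 0.253).

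The widest movement of these genes was in the Polygalae Radix libraries, which have no replicate and were not tested. FN1 was at 1313 CPM at 15.2 µg/mL, 875 CPM at 76 µg/mL and 162 CPM at 380 µg/mL. The high-dose value was 12.3% of the low-dose value, a log2 ratio of -3.01 with 1 CPM added, the lowest but 6 of 17826 genes. VIM went from 992 through 663 to 267 CPM (log2 ratio of high to low -1.89) and TGFBI from 1252 through 1005 to 340.5 CPM (-1.88). These are the genes whose promoters are printed above.

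The cadherins were lower too in the Polygalae Radix high library. CDH4 went from 25.2 through 17.9 to 9.50 CPM (-1.32), CDH1 from 37.1 through 28.8 to 14.5 CPM (-1.30) and CDH2 from 103.9 through 91.5 to 47.5 CPM (-1.11), so the epithelial and the neural cadherin were lower side by side. EPCAM went from 4.74 through 4.17 to 3.06 CPM (-0.50). ZEB1 went the other way, from 34.9 through 37.6 to 45.5 CPM (0.37). SNAI2 stood at 0.804, 0.866 and 0.747 CPM, in no order of dose. In all, 6 of the 9 members were at least 2-fold lower at the high dose, against 7.32% of all genes in that direction and 9.56% in either. For 7 members the lowest value of all 60 libraries was there. The share of all genes with their lowest value in that library was not counted, so this count has no background to be read against.

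Scaling moved these ratios. The TMM factor of the high-dose library was 1.24, and without TMM factors the median ratio of all genes was 0.23 rather than 0. FN1 was then at -2.68, VIM at -1.56, TGFBI at -1.55 and CDH4 at -1.02, all still at least 2-fold lower, CDH1 (-0.99) and CDH2 (-0.79) were not, ZEB1 was at 0.70, and SNAI2 turned from -0.047 to 0.10. The length slope of the high-dose library was 0.118, against 0.0024 and -0.00441 at the medium and low dose, whereas in the length-biased libraries it was negative. Fibroblast markers summed to 26.5 CPM there and to 41.2 and 45.2 CPM at the medium and low dose, and leukocyte markers to 6.75, 21.4 and 20.1 CPM. The part of these in the result was not tested.

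**Figure D5:**
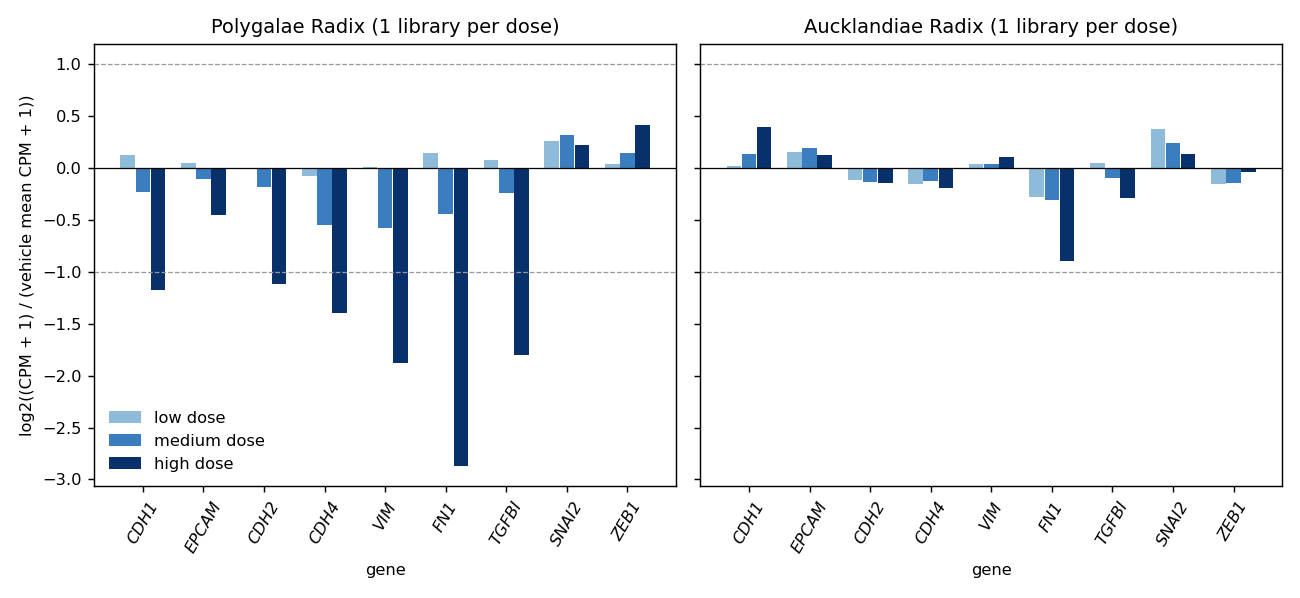
Log2 ratio of each gene to the vehicle mean (vertical axis, CPM with 1 CPM added; dashed lines at 2-fold) at the low, medium and high dose of Polygalae Radix (left) and Aucklandiae Radix (right), 1 library per bar. Under Polygalae Radix FN1 reaches -2.87, VIM -1.88 and TGFBI -1.80 at the high dose while ZEB1 stands at 0.42, and under Aucklandiae Radix FN1 reaches -0.90 and CDH1 0.39.

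In the Aucklandiae Radix libraries, also 1 per dose and not tested, FN1 was lower and CDH1 higher at the high than at the low dose. Among 17826 genes the FN1 ratio ranked 452 from the lowest and the CDH1 ratio 2009 from the highest. FN1 was at 981.5 CPM at 14.8 µg/mL, 959 CPM at 74 µg/mL and 639 CPM at 370 µg/mL (log2 ratio of high to low -0.62), and TGFBI at 1228, 1115 and 975 CPM (-0.33). CDH1 was at 34.5, 37.4 and 44.9 CPM (0.37), the highest CDH1 value of the 60 libraries. VIM (0.069), CDH2 (-0.027), CDH4 (-0.045), EPCAM (-0.026) and ZEB1 (0.12) were closer to the median of all genes (0.011), and SNAI2 was at -0.25. None of the 9 members passed 2-fold, and 1.08% of all genes did. Without TMM factors the ratios of CDH2, CDH4 and EPCAM turned from just below to just above 0. The length slope was -0.00518 at the high and -0.0981 at the low dose, leukocyte markers summed to 37.1 and 17.3 CPM and fibroblast markers to 32.9 and 48.7 CPM, and the part of these was not tested.

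Other genes of the transition were read from lists. Between high and low dose, 13 of 168 pairs of other epithelial junction and surface genes passed (11 higher, 2 lower), and 15 of 168 pairs of other mesenchymal and matrix genes (10 higher, 5 lower), against the 2.29% background named above. Under Soshiho-tang, where CDH1 and CDH4 were higher, 5 of 28 junction genes were higher and 0 lower (median 0.0137 beside -0.00141 for all genes), where 5.19% of all genes were higher and 4.63% lower. With all 54 libraries 2 of the 28 were higher. Among them the tight junction genes CLDN1 (0.48 ± 0.0411, edgeR adjusted p 1.24e-12) and OCLN (0.36 ± 0.0695, 0.000242) rose, and both also passed with all 54 libraries (0.00703 and 0.00303). ELF3, an epithelial transcription factor, rose by 0.26 ± 0.0467 (5.96e-05; 0.025 with all 54 libraries).

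Mesenchymal and matrix genes moved in both directions under the same Soshiho-tang dose, with 5 of 28 higher and 2 lower, beside the same 5.19% and 4.63% of all genes, and 0 in either direction with all 54 libraries. COL1A1, a fibrillar collagen gene, fell by 0.40 (edgeR adjusted p 0.000198; 0.209 with all 54 libraries). Of 3 tested catenins, which link cadherins to actin, CTNND1 fell by 0.20 (0.000243) and CTNNB1 fell by 0.14 (0.0283), neither with all 54 libraries (0.9 and 0.73). Among the fibronectin and TGFBI receptors 1 of 7 was higher, the integrin gene ITGA3 (0.31 ± 0.0408, 1.97e-07; 0.144). Fibroblast markers summed to 37.1 and 33.8 CPM at the high and 43.7 and 44.2 CPM at the low dose of Soshiho-tang. That sum includes COL1A1 itself, which alone was at 29.6 CPM in vehicle, so it is not separate from the COL1A1 result. Its part was not tested.

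Genes of transforming growth factor beta signalling were called in both directions under Soshiho-tang as well, again beside 5.19% of all genes higher and 4.63% lower. In the list of ligands, receptors and SMADs 2 of 14 were higher and 2 lower: the latent-binding protein gene LTBP4 rose (0.35 ± 0.071, edgeR adjusted p 0.000406), and the receptor genes TGFBR3 (fell by 0.49, 0.00398) and TGFBR2 (fell by 0.26, 0.000753) were lower. In the list of feedback and target genes 5 of 15 were higher and 1 lower, among them BHLHE40 (0.40 ± 0.0457, 4.15e-09) and JUNB (0.38 ± 0.0674, 7.37e-05). LTBP4 and TGFBR3 passed with all 54 libraries (0.00853 and 0.0408), TGFBR2, BHLHE40 and JUNB did not (0.76, 0.382 and 0.137). Among 13 other transcription factors of the transition, ETS1 (0.42 ± 0.0703, 2.48e-05) and FOSL1 (0.31 ± 0.0744, 0.00331) rose, neither with all 54 libraries (0.177 and 0.382).

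Under Zizyphi Semen, the other extract with higher CDH4, 3 of 28 junction genes and 3 of 28 mesenchymal genes were higher at the high than at the low dose and 0 were lower in either list, beside 0.454% of all genes higher and 0.718% lower. With all 54 libraries 0 were called in both lists. The keratin gene KRT19 rose by 0.36 ± 0.0527 (edgeR adjusted p 1.91e-05; 0.884 with all 54 libraries). Against vehicle, where 22.8% of all genes were called (9.52% higher, 13.2% lower), 10 of 28 mesenchymal genes were higher and 2 lower, or 1 and 0 with all 54 libraries. Of the 28 junction genes 3 were higher and 2 lower. Of 10 epithelial transcription and splicing regulators 4 were higher and 0 lower, or 1 and 0 with all 54 libraries. Every replicated extract had higher calls in this list against vehicle at the high dose, 20 of 60 pairs together, with 0 lower. The result was therefore not particular to Zizyphi Semen. Under Zizyphi Semen, among 13 other transcription factors of the transition 1 was higher and 1 lower. The higher one was SNAI1, the family member next to SNAI2 (0.48 ± 0.0697, 1.96e-06, and 0.0371 with all 54 libraries). Of 14 ligands, receptors and SMADs 4 were higher and 3 lower, LTBP3 among the higher (0.46 ± 0.062, 8.62e-07, and 0.000215 with all 54 libraries). CTNNA1 was lower (-0.17 ± 0.0299, 3.52e-05; 0.701), and all 3 tested catenins were lower than vehicle at the high dose of Soshiho-tang, Longan Arillus and Zizyphi Semen, where 11.6%, 8.52% and 13.2% of all genes were lower. With all 54 libraries 1, 0 and 0 of the 3 catenins were called lower.

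In the Polygalae Radix high library, 18 of 28 other mesenchymal genes were at least 2-fold lower than at the low dose and 0 higher (median log2 ratio -1.13, beside 0 for all genes), and 10 of 28 junction genes were lower and 0 higher (median -0.54), beside 7.32% of all genes lower and 2.25% higher. The lowest ratios were those of the keratins KRT19 (2.10 against 24.5 CPM, -3.04), KRT18 (403 against 2693 CPM, -2.74) and KRT8 (480 against 3110 CPM, -2.70) and of the collagen gene COL5A1 (24.4 against 157 CPM, -2.64). All 3 catenins and 4 of 7 receptors were lower, with CTNNA1 at -1.86 and ITGA3 at -1.75. Of 13 other transcription factors 2 were at least 2-fold higher, ZEB2 (20.8 against 7.91 CPM, 1.29) and FOXC1 (30.7 against 12.6 CPM, 1.22). In the Aucklandiae Radix high library 3 of 28 mesenchymal genes were at least 2-fold lower, TAGLN (-1.30), SPARC (-1.15) and COL5A1 (-1.13), beside 0.494% of all genes, while the transcription factor gene FOSL1 (1.28) was higher, beside 0.589%.

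Over the 19 replicated group means of the 52 libraries, members of one class did not move as a block. FN1 and VIM ran against each other (r = -0.668), as did FN1 and TGFBI (-0.623), while FN1 and ZEB1 (0.626), CDH2 and ZEB1 (0.572) and CDH1 and CDH4 (0.525) ran together. Such values are descriptions, since groups share sets and library quality. The genes whose group means followed a member most closely among 10988 genes of at least 5 CPM were SPG11 (r = 0.935), ARHGAP26 and PAPPA for FN1, ETS2 (0.893), TIMP3 and TACC2 for TGFBI, and RECK (0.881), HEATR6 and KIF21B for CDH1. For CDH4 they were LOXL2 (0.818), KRT19 and ATRAID, for ZEB1 KANK1 (0.878), ARID4B and ATP8B2, and for SNAI2 ZNF224 (0.857), COL27A1 and MAGED1. For CDH2 they were PHLDB2 (0.848), ST6GAL2 and FCF1, for VIM TAF9 (0.816), KXD1 and HAPLN3, and for EPCAM VSIG10 (0.659), COQ6 and MEX3D.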

How the data were processed

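Libraries were made from total RNA with a directional mRNA kit and read as 100 bp pairs, per the labels' protocols. Per the submitters' processing notes, the authors used FastQC 0.11.9, Trim Galore 0.6.5, STAR 2.7.3a and RSEM 1.3.3 with build hg38 and deposited expected counts per gene with no scaling. Neither annotation release nor strand setting is given in the sources used here. Of the deposited expected counts, 10.485% were not whole, and they were rounded. Symbols were found for 56558 of 60675 identifiers, and coordinates came from GENCODE 29 (57055 identifiers matched). The members, lists, tests and left-out libraries were chosen with earlier results of these data known. The 52 libraries were fitted as 19 groups with edgeR 4.0.16 (quasi-likelihood F test, TMM factors, robust dispersion, filterByExpr) in R 4.3.3, with Benjamini-Hochberg adjustment over 17826 genes in each of 36 contrasts, and every adjusted p of the report is edgeR's unless another tool is named. Alternatives were all 54 libraries, DESeq2 1.42.0, RLE factors, other filters, a replicate block, the fit of 1 set and leaving out single libraries. In the extracts with 1 library per dose, 1 CPM was added before the log2 ratio. Named genes were all members, the 3 closest genes to each by correlation of group means, and up to 3 called genes with the largest change per list and kind of comparison, of which some are not reported here. No 2 libraries of a group agreed within sampling noise, the lowest chi-square being 1.82 per degree of freedom. On simulated data for Yijin-tang high against low (17826 genes), known changes were put into a sample of genes above 1 CPM, without any set or length effect. Of the changed genes, those of 1.25-fold were recovered in 62%, 1.5-fold ones in 76% and 2-fold ones in 92%, with 12 false calls among the rest. These shares do not cover genes as low as SNAI2, groups of 2 libraries or genes that follow the length slope. The common dispersion was 0.00244 in the 52 and 0.0173 in the 54 libraries.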

Additional observations from a re-analysis of the deposited data

Results flagged for a closer look

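In the main fit CDH4 responded differently to the 2 ethanol extracts of set 10. The high against low difference of Longan Arillus less that of Zizyphi Semen was -0.4484 on the log2 scale, by a test of the difference itself (edgeR adjusted p 0.0097). Under Zizyphi Semen CDH4 rose from 24.0 to 32.6 CPM, and under Longan Arillus it was at 25.3 CPM at both doses. With all 54 libraries the difference was -0.42 and not called (0.163). The call was also lost in the fit of its own set. It was lost without Longan Arillus high replicate 3 (0.0647) or Zizyphi Semen high replicate 3 (0.0516), and DESeq2 gave no adjusted p. Longan Arillus low has 2 libraries in the fit, and without its replicate 1 or 2 the estimates were -0.42 and -0.48.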

How the results depend on the processing

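With all 54 libraries in place of 52, the calls among members were 1 in place of 5 (high against low), 2 in place of 6, 1 in place of 4 (high and medium against vehicle), 2 in place of 3 (low against vehicle, the 2 being CDH2 and VIM under Longan Arillus, not among the 3), 0 in place of 3 (extracts at the high dose) and 0 in place of 1 (difference of responses). TGFBI in Longan Arillus low against vehicle turned to -0.21 (adjusted p 0.26), and CDH1 in the difference between Longan Arillus and Zizyphi Semen turned to 0.026 (0.956), neither called. The cause was not tested. Without the filter the high against low count was 2, and in the fit of its own set 2, with 0 for the difference of responses. DESeq2 called 5 between extracts and 0 for the difference of responses, where it gave CDH4 no adjusted p. Leaving out 1 library gave 3 to 6 calls between high and low, 5 to 7, 2 to 5 and 2 to 3 for the high, medium and low doses against vehicle, 1 to 3 between extracts, 0 to 1 for the difference of responses and 0 to 0 between medium and low. Over whole sets the replicate numbers did not pair the libraries (median correlation of same-numbered deviations 0.00396 to 0.00784 per set, range -0.077 to 0.333, with 3 of 84 over 0.1). Within Longan Arillus some did go together. High 1 with medium 1 was at 0.333 and high 3 with medium 3 at 0.228, but high 2 with medium 2 at 0.0273. Crossed numbers gave -0.279 (high 1, medium 3) and -0.276 (high 3, medium 1). The main fit did not model this. With the replicate block the calls were 5 between high and low, 7 for the high dose against vehicle, 5 in place of 3 for the low dose and 5 in place of 3 between extracts. Over all genes, Longan Arillus high against low had 16 calls, 128 with the block and 3344 with all 54 libraries. CDH4 in Longan Arillus high against low, -0.00381, turned to 0.026 with all 54 libraries, 0.00505 with the replicate block and 0.00312 in its own set, and ranged from -0.040 to 0.031 with 1 library left out. CDH4 in Yijin-tang high against low ranged from -4.96e-05 to 0.061 in the same way. SNAI2 has no value among genes of at least 1 CPM. Of 49 gene and contrast pairs, 28 kept direction and side of the threshold with all 54 libraries (17 lost the call, 3 reversed), 35 without the filter, 43 with the block, 44 in the own set and 48 with RLE factors, as did 38 of 42 with DESeq2 and 42 of 43 with the filter at 1 CPM. Chosen after seeing the data, ratios without TMM factors left 4 in place of 6 members at least 2-fold lower under Polygalae Radix, and 0.25 CPM added in place of 1 CPM left 6. Low counts limit SNAI2, and 1 library per dose limits Polygalae Radix and Aucklandiae Radix.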
